A study of Mus musculus with 18 samples.

Results

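Kruppel-like factors (KLFs) are transcription factors that share a C-terminal block of zinc fingers and bind GC-rich and CACCC sequences. The genes described here are 10 members of the family, taken by name: Klf2, Klf3, Klf4, Klf5, Klf6, Klf7, Klf9, Klf10, Klf11 and Klf16. All 10 stood in the deposited table of 25897 genes, and all 10 were among the 14128 genes that passed the filter on low counts. Their smallest count in any library was 61.

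The data are counts of newly made RNA from E14tg2a cells, a mouse embryonic stem cell line of 129SV background. Every cell lacked its own Med24, which encodes a subunit of Mediator, the complex between transcription factors and RNA polymerase II. Every cell also held a TET-regulated FLAG-Med24 cDNA and the construct cRAF-ErT2-T2A-RTTA, which joins the fusion kinase cRAF-ErT2 to RTTA through T2A. Rescued cells (labelled WT) had 500 nM doxycycline and so made Med24 from the cDNA; knockout cells (labelled KO) had none for several passages. All were grown in serum with LIF and 2 µM Chir99021, a GSK3 inhibitor, and then kept for 24 h in serum and LIF with 250 nM PD173074, an FGF receptor inhibitor. The 6 groups are rescued and knockout cells given 250 nM 4-hydroxytamoxifen (4OHT) for 0, 2 or 8 h, which activates cRAF and with it ERK, and each group holds 1 library from each of the clones A, B and C. A pulse of 5 mM ethynyl uridine over 15 min marked the new RNA. Doxycycline and Med24 cannot be told apart in this design, and the rescue is a cDNA on an inducible promoter rather than the endogenous gene. The p-values measure the spread between clones labelled alike.

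As background, KLFs fall into 3 groups by the partners that they bind. Klf2, Klf4, Klf5, Klf6 and Klf7 mostly activate transcription through acetyltransferases, Klf3 represses through CtBP, and Klf9, Klf10, Klf11 and Klf16 bind the Sin3 corepressor. In mouse embryonic stem cells Klf2, Klf4 and Klf5 support naive self-renewal, Klf4 downstream of LIF and STAT3, while FGF and ERK signalling moves cells out of the naive state.

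Promoter sequence was at hand for 7 of the 10 genes, from RefSeq on GRCm38.p6, in windows of 300 bases around each start site. Windows for Klf2, Klf4, Klf6, Klf9 and Klf11 are printed, since these genes represent a fall that was smaller without Med24, a response of opposite sign without it, a lasting rise, an early rise seen with Med24, and a fall whose size was not shown to depend on it. Each line runs 5′ to 3′ on the gene's own strand and stops before the annotated first exon. Capitals mark the GC box GGGCGG and the CACCC box on either strand, so that CCGCCC and GGGTG are capitals too; adjoining copies run together.
Klf2, chr8:72318812-72319032, plus strand: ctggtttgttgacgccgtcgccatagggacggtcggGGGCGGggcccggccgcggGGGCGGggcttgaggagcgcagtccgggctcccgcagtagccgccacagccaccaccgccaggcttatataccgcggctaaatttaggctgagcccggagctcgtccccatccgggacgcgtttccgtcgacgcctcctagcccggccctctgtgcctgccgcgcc
Klf4, chr4:55532476-55532725, minus strand: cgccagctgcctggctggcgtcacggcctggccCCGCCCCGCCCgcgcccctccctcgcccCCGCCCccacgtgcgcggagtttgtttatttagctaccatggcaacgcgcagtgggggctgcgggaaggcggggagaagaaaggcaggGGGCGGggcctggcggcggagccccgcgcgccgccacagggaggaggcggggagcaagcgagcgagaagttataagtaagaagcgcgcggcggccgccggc
Klf6, chr13:5861239-5861481, plus strand: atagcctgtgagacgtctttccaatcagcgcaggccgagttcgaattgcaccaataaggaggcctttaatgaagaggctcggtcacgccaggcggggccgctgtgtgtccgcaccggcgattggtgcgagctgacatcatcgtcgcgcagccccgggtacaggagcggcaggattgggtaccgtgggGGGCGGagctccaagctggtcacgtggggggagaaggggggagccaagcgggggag
Klf9, chr19:23140976-23141225, plus strand: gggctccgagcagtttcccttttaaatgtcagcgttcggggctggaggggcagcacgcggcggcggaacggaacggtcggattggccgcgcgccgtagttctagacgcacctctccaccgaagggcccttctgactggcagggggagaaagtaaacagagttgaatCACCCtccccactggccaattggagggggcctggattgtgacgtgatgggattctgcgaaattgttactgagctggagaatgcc
Klf11, chr12:24651121-24651273, plus strand: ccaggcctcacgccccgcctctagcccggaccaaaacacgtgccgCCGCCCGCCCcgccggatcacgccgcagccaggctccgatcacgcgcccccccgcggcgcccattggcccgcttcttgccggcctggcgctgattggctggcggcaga
The printed stretch of Klf4 holds 4 GC boxes, those of Klf2 and Klf11 hold 2 each and that of Klf6 holds 1. Klf9 is the one of the 7 genes with no GC box in its window. Over the full windows 6 of the 7 genes had a GC box, against 35.7% of all 32851 windows of that length, and 4 of 7 (Klf2, Klf3, Klf7 and Klf9) had CACCC, against 57.5%. The EGR motif GCGNGGGCG, which can overlap a GC box, was found in Klf2, Klf3 and Klf4 and in 5.55% of all windows. Klf9 alone among the 7 held TGANTCA, the AP-1 motif with any base allowed in its middle (7.81% of all windows). Its match reads TGAATCA and overlaps its CACCC box, so it is not the stricter form TGACTCA or TGAGTCA, whose share was not counted. Klf9 alone also held the core TGACGT of the cAMP response element (7.51%) and the STAT motif TTCNNNGAA (8.3%). None of the 7 windows held the ETS motif CCGGAAGT (3.89%), the full cAMP response element TGACGTCA (1.79%) or a CArG box (1.63%). Both strands were searched for each motif. A match describes letters and not binding.

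**Figure D1:**
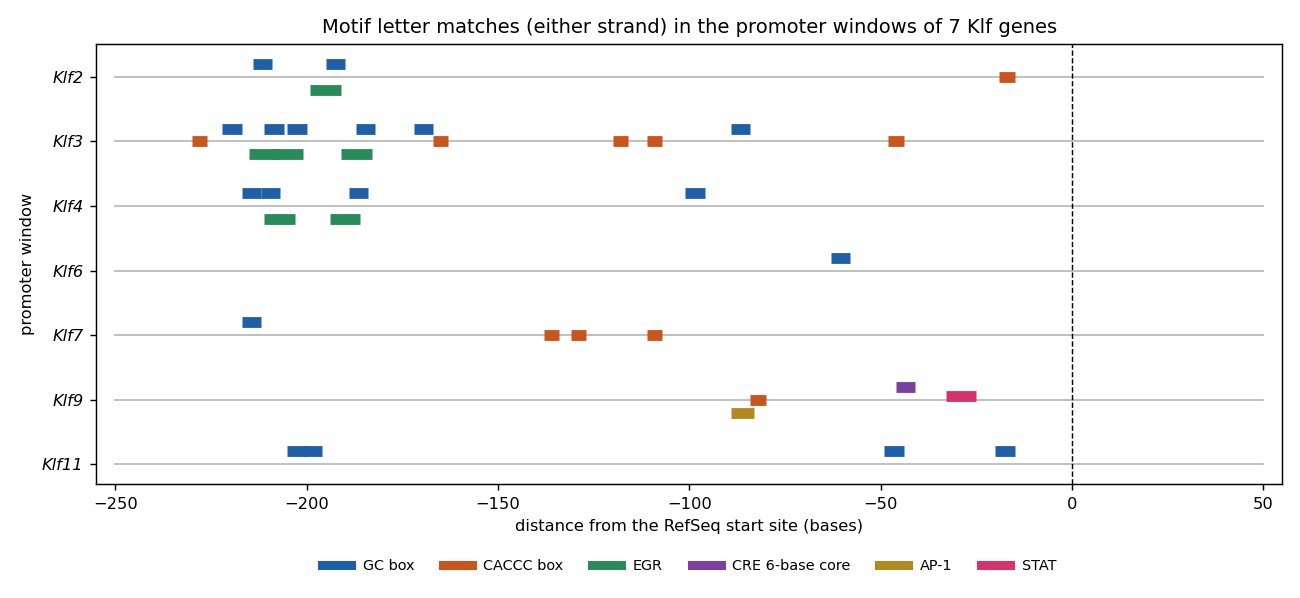
Positions of motif matches on either strand in the RefSeq promoter windows of 7 Klf genes; the horizontal axis is the distance in bases from the RefSeq start site (dashed line), and each coloured bar is a match. GC boxes appear in every gene shown except Klf9, which alone has the STAT and TGACGT matches and the match marked AP-1, a TGANTCA that reads TGAATCA.

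Library totals lay between 6691177 and 14541145 counts. Levels below are CPM, edgeR's depth-scaled counts after TMM, and 3 counts correspond to 0.196 to 0.629 CPM, far under any member's level. Med24 checked the labels: it stood at 515 to 602 CPM in rescued and 35.5 to 41.7 CPM in knockout libraries at 0 h. At 2 h it read 1520 to 1775 CPM against 43.1 to 49.2 CPM, and at 8 h 400 to 407 CPM against 34.0 to 42.8 CPM. Newly made Med24 RNA in rescued cells was thus not constant over the time course. The part of this change in the Klf differences between knockout and rescued cells was not tested. In 3 knockout libraries (2 h clone A, 8 h clones B and C) 13 very abundant genes, Cdk8 and Lars2 among them, held 34.2%, 36.4% and 44.0% of all counts, against 17.7% to 24.0% in the other 15; results that rest on these libraries are also given without them, when knockout at 8 h is clone A alone, which is then assumed to vary like the libraries of the other groups. The embryonic stem cell markers were present, with Pou5f1 at 169 to 383 CPM and Sox2 at 183 to 362 CPM. Of 8 fibroblast markers Lum was at 0 in every library and Col1a2, Col3a1, Postn, Dcn and Twist2 reached at most 0.666 CPM, while Col1a1 reached 7.44 and Thy1 5.24 CPM. Their summed level was 0.835 to 1.8 CPM at 0 h, 7.29 to 9.43 CPM at 2 h and 3.36 to 4.55 CPM at 8 h in rescued libraries, and 0.807 to 1.84, 6.72 to 8.27 and 5.44 to 7.97 CPM in knockout libraries. The part of this rise in the Klf responses to 4OHT was not tested. In pooled cells, fewer cells making an RNA and less RNA per cell cannot be told apart.

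A gene passed the test at an adjusted p under 0.05 in edgeR's quasi-likelihood test, with Benjamini-Hochberg adjustment over the 14128 genes; fold changes are log2 ± SE. At 2 h of 4OHT in rescued cells all 10 genes passed, where 66.2% of all genes tested did: 6 rose (Klf3, Klf5, Klf6, Klf9, Klf10, Klf16), as 32.4% of all genes did, and 4 fell (Klf2, Klf4, Klf7, Klf11), as 33.8% did. At 8 h all 10 passed again, against 61.9% of all genes, with 6 higher (30.7% of all genes) and 4 lower (31.3%). Between 2 h and 8 h in rescued cells 3 rose (30.7% of all genes), 4 fell (30.2%) and 3 did not pass, where 61% of all genes passed. In knockout cells 6 rose (31.5% of all genes), 2 fell (35.2%) and 2 did not pass at 2 h, where 66.6% of all genes passed. At 8 h 4 rose (28.2%), 3 fell (29.6%) and 3 did not pass, where 57.8% of all genes passed. From 2 h to 8 h 4 rose (29.4%), 4 fell (27.7%) and 2 did not pass, where 57.1% of all genes passed. With so many genes passing, these counts say little that is particular to the family. The median log2 fold change of the 10 genes at 2 h was 0.379 in rescued and 0.354 in knockout cells, beside -0.0189 and -0.0485 over all genes. Rises and falls offset each other in these medians, and each gene is described in turn.

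Knockout and rescued cells were compared at each time. At 0 h 1 of the 10 was higher in knockout cells (6.81% of all genes) and 2 were lower (9.64%), where 16.4% of all genes passed. At 2 h 2 were higher (10.8%) and 4 lower (12.9%), where 23.7% passed, and at 8 h 2 were higher (14.5%) and 5 lower (17.1%), where 31.6% passed. The response itself was tested as the knockout minus the rescued log2 fold change. At 2 h it differed in 7 of the 10 genes, where 13.2% of all genes passed: 3 lay above 0 (6.6% of all genes) and 4 below (6.6%). The 8 h response differed in 6, where 16.8% of all genes passed, with 2 above 0 (7.88%) and 4 below (8.88%). The step from 2 h to 8 h differed in 4, where 9% passed, with 2 above 0 (4.38%) and 2 below (4.61%). These comparisons share libraries with one another. Scaling by library size alone, without TMM, put the median of all genes at -0.177 at 2 h and -0.0819 at 8 h in rescued cells. In knockout cells it was -0.332 and -0.381, and in the 2 h, 8 h and step differences -0.134, -0.297 and -0.157. The directions below are thus relative to the bulk of genes. Values from that scaling are also given relative to its median gene.

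**Figure D2:**
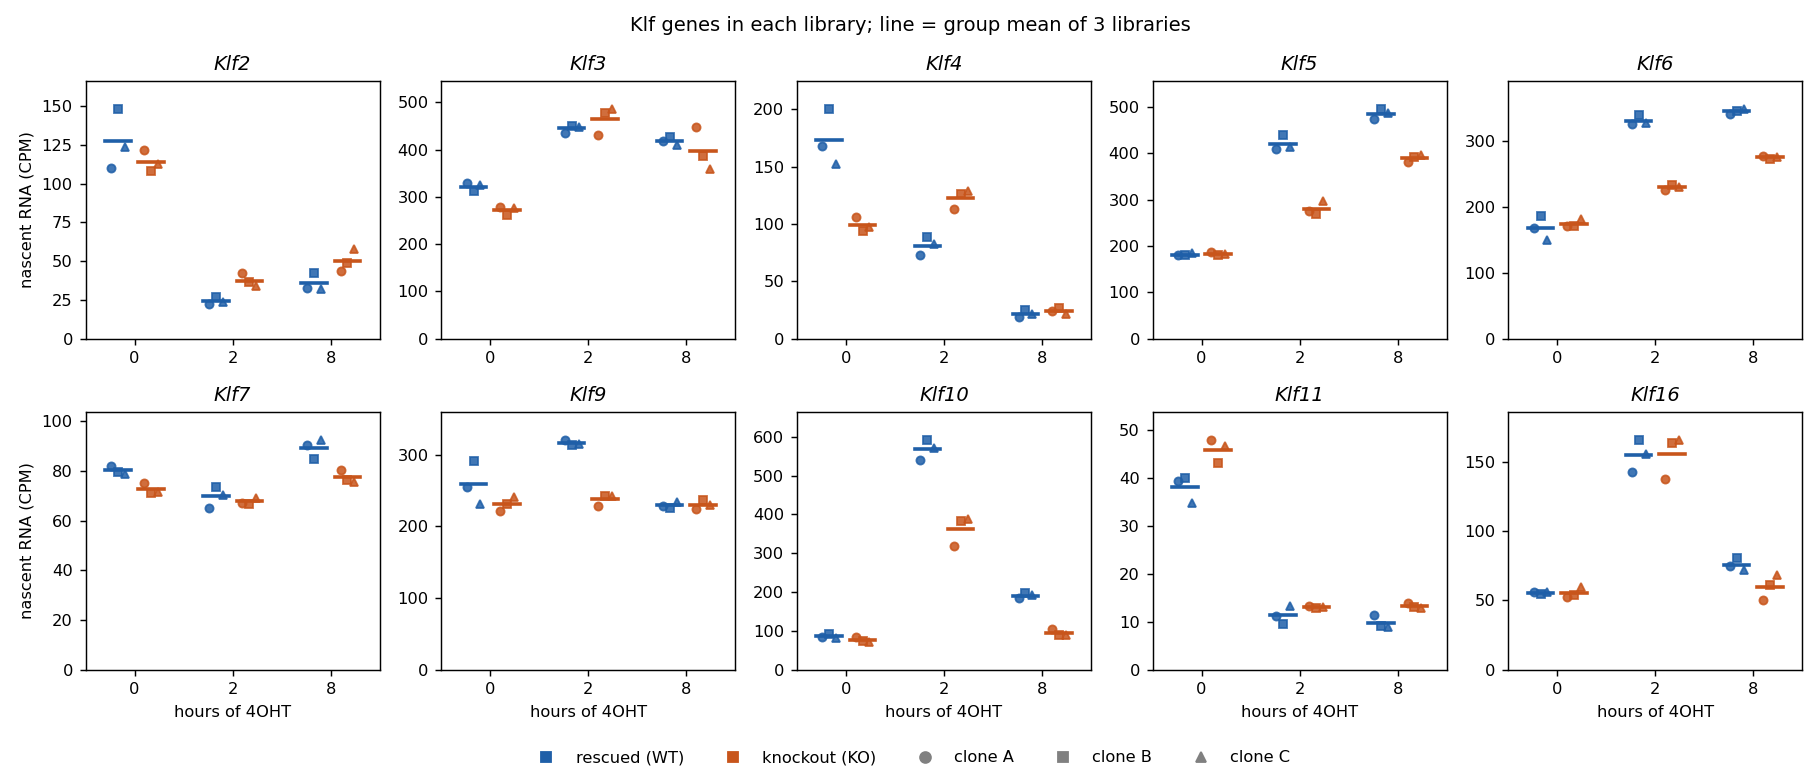
Level of each Klf gene in each of the 18 libraries; the vertical axis is CPM and the horizontal axis hours of 4OHT, with rescued libraries in blue, knockout in orange, clones by symbol and a line at each group's mean. Klf2, Klf4 and Klf11 end below their 0 h levels, Klf5 and Klf6 stay high, and Klf10 and Klf16 peak at 2 h.

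At 0 h in rescued cells the level per kilobase of annotated exon was highest for Klf2, at 68.9 ± 10.5 CPM per kb (SD, n = 3), followed by Klf4 at 57.0 ± 8.05 and Klf9 at 53.8 ± 6.26, and these neighbours overlapped within 1 SD. Klf6 (38.3 ± 4.24) and Klf5 (34.9 ± 0.510) came next and also overlapped. Klf3 (28.6 ± 0.725) stood clear of Klf16 (20.8 ± 0.338) and Klf10 (20.7 ± 1.26), which did not differ beyond their spread, and Klf7 (9.86 ± 0.198) and Klf11 (8.76 ± 0.644) were lowest. In knockout cells Klf4 stood at 32.5 ± 2.08, below Klf9, Klf6 and Klf5, and Klf11 (10.6 ± 0.589) lay above Klf7 (8.94 ± 0.276). Whether introns were counted is not given in the sources used here, and per kilobase of whole gene the order differs: Klf9, whose gene spans 26909 bases, stood at 9.62 CPM per kb and below Klf5 and Klf3, at 11.1 and 10.9.

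Klf2 (chr8:72319033-72321656, plus strand), a naive-state activator, fell to a small part of its level within 2 h of 4OHT and recovered little by 8 h, and the fall was smaller without Med24. Klf2 read 110, 148 and 124 CPM in rescued clones A, B and C at 0 h, 22.6, 26.9 and 23.8 CPM at 2 h and 32.5, 42.4 and 32.1 CPM at 8 h. Knockout clones gave 122, 108 and 113 CPM, then 42.1, 36.5 and 33.7 CPM, then 43.6, 48.9 and 58.1 CPM. At 0 h the clones of both kinds overlapped, while at 2 h and at 8 h every knockout library lay above every rescued one. The fall at 2 h was 5.20-fold in rescued cells (-2.38 ± 0.11, adjusted p = 3.23e-18) and 3.07-fold in knockout cells (-1.62 ± 0.10, adjusted p = 1.45e-14), and these responses differed by 0.76 ± 0.16 (adjusted p = 0.000781). From 2 h to 8 h Klf2 rose again by 0.53 ± 0.12 in rescued cells (adjusted p = 0.000487) and by 0.41 ± 0.12 in knockout cells (adjusted p = 0.00416). The 8 h responses, -1.85 ± 0.10 and -1.21 ± 0.10, differed by 0.64 ± 0.15 (adjusted p = 0.00249). Knockout cells held 1.52 times the rescued level at 2 h (0.61 ± 0.13, adjusted p = 0.000492) and 1.40 times at 8 h (0.48 ± 0.12, adjusted p = 0.00151). Deviations of Klf2 from its group means correlated at 0.613 with those of the abundant gene Cdk8 over the 18 libraries. The highest knockout value was in clone A at 2 h and in clone C at 8 h, both libraries rich in abundant genes. The latter had the largest share of them. Without the 3 such libraries the 8 h difference between knockout and rescued cells was 0.32 (adjusted p = 0.0679) and the knockout recovery 0.31 (adjusted p = 0.0653), neither of which passed. With library size alone the 8 h difference was 0.21 (adjusted p = 0.22) and that of the 8 h responses 0.33 (adjusted p = 0.21), which are 0.47 and 0.63 relative to that scaling's median gene.

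Klf4 (chr4:55527143-55532466, minus strand), a naive-state activator and reprogramming factor, had opposite early responses with and without Med24. Klf4 read 168, 201 and 153 CPM in rescued clones A, B and C at 0 h, 72.7, 88.6 and 82.6 CPM at 2 h and 18.9, 24.9 and 21.5 CPM at 8 h. Knockout clones gave 106, 93.9 and 97.3 CPM, then 113, 126 and 129 CPM, then 24.3, 26.5 and 21.8 CPM. Knockout libraries thus lay wholly below the rescued ones at 0 h, wholly above them at 2 h and among them at 8 h. Klf4 fell 2.13-fold by 2 h in rescued cells (-1.09 ± 0.083, adjusted p = 6.39e-13), whereas it rose 1.24-fold in knockout cells (0.31 ± 0.083, adjusted p = 0.00148). The responses differed by 1.40 ± 0.12 (adjusted p = 3.26e-10), the largest such difference among the 10 genes in absolute size. By 8 h both kinds of cell had lost most of the signal, with falls of 8.14-fold (-3.02 ± 0.097, adjusted p = 2.54e-22) and 4.07-fold (-2.03 ± 0.11, adjusted p = 1.56e-16). These differed by 1.00 ± 0.15 (adjusted p = 2.01e-05). The 2 h and 8 h differences of responses both include a lower starting level in knockout cells. Knockout against rescued cells gave -0.81 ± 0.081 at 0 h (adjusted p = 1.5e-08) and 0.60 ± 0.085 at 2 h (adjusted p = 1.88e-06). At 8 h it gave 0.19 ± 0.13, which did not pass (adjusted p = 0.274). The falls between 2 h and 8 h, -1.93 ± 0.10 in rescued and -2.34 ± 0.11 in knockout cells, differed by -0.40 ± 0.15, which did not pass (adjusted p = 0.102) but did with no filter on low counts (-0.42, adjusted p = 0.00658). The early knockout rise depended on the scaling: with library size alone it was 0.03 (adjusted p = 0.871), which is 0.36 above the median of all genes under that scaling.

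Klf5 (chr14:99298691-99315036, plus strand), the third naive-state activator, moved the other way and rose through 8 h, less steeply without Med24. Klf5 read 181, 180 and 185 CPM in rescued clones A, B and C at 0 h, 409, 439 and 413 CPM at 2 h and 473, 496 and 487 CPM at 8 h. Knockout clones gave 188, 181 and 182 CPM, then 275, 268 and 296 CPM, then 381, 392 and 397 CPM. The starting levels overlapped, and afterwards each knockout library lay below each rescued one. At 2 h the rise was 2.32-fold in rescued cells (1.21 ± 0.052, adjusted p = 5.36e-19) and 1.52-fold in knockout cells (0.61 ± 0.052, adjusted p = 1.34e-11), a difference of -0.60 ± 0.074 (adjusted p = 3.86e-07). At 8 h the rises were 2.67-fold (1.42 ± 0.052, adjusted p = 8.24e-21) and 2.13-fold (1.09 ± 0.052, adjusted p = 1.64e-17), and the difference had narrowed to -0.33 ± 0.073 (adjusted p = 0.0018). The narrowing was itself tested: the step from 2 h to 8 h was 0.21 ± 0.050 in rescued and 0.48 ± 0.051 in knockout cells, and the steps differed by 0.27 ± 0.071 (adjusted p = 0.0118). Knockout cells were at -0.59 ± 0.051 against rescued cells at 2 h (adjusted p = 9.1e-11) and at -0.31 ± 0.050 at 8 h (adjusted p = 1.01e-05). The difference of the steps did not pass without the 3 libraries rich in abundant genes (0.22, adjusted p = 0.0724) or with library size alone (0.10, adjusted p = 0.825, and 0.26 relative to the median gene).

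Klf6 (chr13:5861482-5870394, plus strand), a widely expressed activator, followed nearly the same course as Klf5. Klf6 read 169, 187 and 150 CPM in rescued clones A, B and C at 0 h, 327, 341 and 327 CPM at 2 h and 342, 347 and 350 CPM at 8 h. Knockout clones gave 172, 171 and 182 CPM, then 226, 234 and 231 CPM, then 278, 273 and 277 CPM. In both kinds of cell each 8 h library lay above each 2 h library, in rescued cells by little, and knockout cells stayed below rescued cells at both times with no overlap. The 2 h rise was 1.97-fold in rescued cells (0.98 ± 0.058, adjusted p = 1.69e-15) and 1.32-fold in knockout cells (0.40 ± 0.058, adjusted p = 6.07e-07), a difference of -0.58 ± 0.082 (adjusted p = 4.86e-06). At 8 h the rises of 1.04 ± 0.058 and 0.66 ± 0.058 differed by -0.38 ± 0.082 (adjusted p = 0.00126). The step from 2 h to 8 h was 0.26 ± 0.058 in knockout cells (adjusted p = 0.000293) and 0.06 ± 0.056 in rescued cells (adjusted p = 0.349), and the steps were not shown to differ (0.20 ± 0.080, adjusted p = 0.129). Klf6 in knockout cells stood at -0.53 ± 0.057 against rescued cells at 2 h (adjusted p = 1.14e-08) and -0.33 ± 0.057 at 8 h (adjusted p = 3.54e-05). With library size alone the knockout rise at 2 h was 0.11 (adjusted p = 0.458) and its later step 0.18 (adjusted p = 0.264), or 0.44 and 0.22 relative to the median gene.

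Klf7 (chr1:64029447-64122282, minus strand), an activator best known from developing neurons, changed little. Klf7 read 82.0, 79.6 and 78.9 CPM in rescued clones A, B and C at 0 h, 65.1, 73.6 and 70.4 CPM at 2 h and 90.2, 84.6 and 92.5 CPM at 8 h. Knockout clones gave 75.3, 71.2 and 71.6 CPM, then 67.2, 66.7 and 69.1 CPM, then 80.4, 76.2 and 75.5 CPM. The course was a shallow dip at 2 h and a return, within a narrow range in both kinds of cell. In rescued cells Klf7 fell by 0.20 ± 0.057 on the log2 scale at 2 h (adjusted p = 0.00266) and then rose by 0.36 ± 0.055 to 8 h (adjusted p = 1.71e-06), ending 0.15 ± 0.055 from the start (adjusted p = 0.0154). In knockout cells the later rise passed (0.20 ± 0.059, adjusted p = 0.00496), while the values against 0 h, -0.10 ± 0.057 and 0.10 ± 0.058, did not (adjusted p = 0.119 and 0.154). No difference of responses passed for Klf7: knockout minus rescued was 0.10 ± 0.081 at 2 h and -0.06 ± 0.080 at 8 h (adjusted p = 0.479 and 0.678). Knockout cells were lower at 8 h by 1.15-fold (-0.20 ± 0.056, adjusted p = 0.00655), which did not pass without the 3 libraries rich in abundant genes (-0.15, adjusted p = 0.161). The gain at 8 h in rescued cells did not pass without rescued 0 h clone C, 8 h clone A or 8 h clone C (adjusted p = 0.0622 to 0.0768). Neither it nor the knockout's later rise passed with library size alone (0.08 and 0.12, adjusted p = 0.634 and 0.489, or 0.16 and 0.16 relative to the median gene). The knockout value at 2 h passed with library size alone (-0.39, adjusted p = 0.00955), at -0.06 relative to the median gene. The antisense-strand genes Gm26649, whose 3465 bases of exon lie wholly within Klf7, and Gm13748 overlap it, and reads of the pairs cannot be told apart where strand was not counted.

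Klf3 (chr5:64803388-64832901, plus strand), the CtBP-binding repressor, rose at 2 h and stayed up at 8 h. Klf3 read 328, 313 and 324 CPM in rescued clones A, B and C at 0 h, 435, 450 and 449 CPM at 2 h and 418, 426 and 410 CPM at 8 h. Knockout clones gave 278, 262 and 276 CPM, then 431, 477 and 487 CPM, then 448, 386 and 358 CPM. Knockout cells began lower without overlap, and after 4OHT the clones of both kinds overlapped. The 2 h rise was 1.38-fold in rescued cells (0.47 ± 0.062, adjusted p = 1.07e-07) and 1.71-fold in knockout cells (0.78 ± 0.063, adjusted p = 3.24e-12), and these differed by 0.31 ± 0.088 (adjusted p = 0.0174). The 8 h rises, 0.38 ± 0.062 and 0.55 ± 0.063, were not shown to differ (0.18 ± 0.089, adjusted p = 0.185). Knockout against rescued cells gave -0.24 ± 0.063 at 0 h (adjusted p = 0.00789), 0.07 ± 0.062 at 2 h and -0.07 ± 0.062 at 8 h (adjusted p = 0.505 and 0.439, neither passed). Klf3 is the member most tied to the uneven libraries: its deviations from the group means correlated at -0.897 with those of Cdk8 over the 18 libraries, and the libraries rich in abundant genes held the lowest value at 2 h and the lower pair at 8 h in knockout cells. Without these 3 libraries knockout at 8 h is clone A alone, the highest Klf3 value of that group, and no replicate measures its spread. The 8 h responses then differed by 0.35 (adjusted p = 0.000482). The knockout fall from 2 h to 8 h, -0.22 ± 0.062 with them (adjusted p = 0.00299), was -0.11 (adjusted p = 0.138). Without knockout 8 h clone C the difference of the 8 h responses was 0.24 (adjusted p = 0.0374), and without clone A knockout cells at 8 h stood at -0.17 against rescued cells (adjusted p = 0.0233) and the steps differed by -0.23 (adjusted p = 0.0387). The difference of the 2 h responses did not pass without knockout 0 h clone B or 2 h clone C (adjusted p = 0.0507 and 0.0562). With library size alone, of the Klf3 changes that passed, only the knockout rise at 2 h still did. Relative to the median gene the rescued rises at 2 h and 8 h were then 0.49 and 0.39, the knockout rise at 8 h 0.59 and the difference of the 2 h responses 0.32. The rescued step from 2 h to 8 h, -0.09 ± 0.062 (adjusted p = 0.212), passed with only the groups compared (adjusted p = 0.0287). Gm20033, on the other strand, shares 404 bases of exon with Klf3, so some reads may be its own.

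Klf9 (chr19:23141226-23168134, plus strand), a Sin3-binding factor known as a target of glucocorticoid and thyroid hormone, made a short early rise that was seen with Med24. Klf9 read 254, 291 and 231 CPM in rescued clones A, B and C at 0 h, 321, 313 and 315 CPM at 2 h and 228, 226 and 234 CPM at 8 h. Knockout clones gave 222, 232 and 241 CPM, then 229, 242 and 242 CPM, then 224, 237 and 230 CPM. All 9 knockout values lay between 222 and 242 CPM, and the rescued 2 h libraries stood above every other library. The rescued rise at 2 h was 1.22-fold (0.29 ± 0.060, adjusted p = 8.81e-05), beside 0.04 ± 0.060 in knockout cells (adjusted p = 0.585). The rescued level fell again from 2 h to 8 h (-0.46 ± 0.059, adjusted p = 5.82e-08), beside -0.05 ± 0.061 in knockout cells (adjusted p = 0.536), and these steps differed by 0.42 ± 0.085 (adjusted p = 0.00123). At 2 h knockout cells were lower than rescued cells by 1.33-fold (-0.41 ± 0.060, adjusted p = 2.63e-06), while at 0 h and 8 h they were not shown to differ (-0.16 ± 0.060 and 0.01 ± 0.061, adjusted p = 0.0664 and 0.952). The difference of the 2 h responses, -0.25 ± 0.085 (adjusted p = 0.0458), passed narrowly. It did not pass in 10 of the 12 fits that left out 1 library, all but those without rescued 0 h clone B or knockout 0 h clone A (adjusted p = 0.0666 to 0.185). It also did not pass by DESeq2 (-0.23, adjusted p = 0.0594), with its size factors in edgeR (adjusted p = 0.069) or without the 3 libraries rich in abundant genes (-0.22, adjusted p = 0.0556). Without those 3 libraries the 0 h difference passed (-0.16, adjusted p = 0.023), although none of them is a 0 h library. Rescued cells at 0 h were spread, with clone B high: without it the 8 h value against 0 h moved from -0.17 ± 0.060 (adjusted p = 0.0125) to -0.09 (adjusted p = 0.176), and without clone C, the lowest, knockout cells stood at -0.24 against rescued cells at 0 h (adjusted p = 0.00715) and the 8 h responses differed by 0.25 (adjusted p = 0.0386). With library size alone the rescued rise was 0.13 (adjusted p = 0.386) and the difference of the steps 0.24 (adjusted p = 0.553), and neither passed, at 0.31 and 0.40 relative to the median gene. The 2 h difference of responses, -0.38, and the rescued 8 h value, -0.24, did not pass either (adjusted p = 0.317 and 0.102), while the knockout 8 h value did (-0.38, adjusted p = 0.00821). These 3 values lay at -0.24, -0.16 and 0.00 relative to the median gene.

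Klf10 (chr15:38291463-38300706, minus strand), a Sin3-binding repressor known as a TGF-beta-inducible early gene, had the steepest rise of the 10 genes at 2 h in both kinds of cell. Klf10 read 83.7, 92.4 and 83.0 CPM in rescued clones A, B and C at 0 h, 540, 592 and 572 CPM at 2 h and 184, 198 and 192 CPM at 8 h. Knockout clones gave 84.2, 73.6 and 72.7 CPM, then 319, 384 and 388 CPM, then 105, 89.0 and 88.9 CPM. By 8 h knockout libraries had come back close to their start, while every rescued library still stood well above its own. At 2 h Klf10 rose 6.58-fold in rescued cells (2.72 ± 0.075, adjusted p = 7.5e-24) and 4.74-fold in knockout cells (2.24 ± 0.075, adjusted p = 1.32e-21), a difference of -0.47 ± 0.11 (adjusted p = 0.00185). At 8 h the rises were 2.21-fold (1.15 ± 0.076, adjusted p = 2.63e-14) and 1.24-fold (0.31 ± 0.081, adjusted p = 0.00176), a difference of -0.84 ± 0.11 (adjusted p = 2.24e-06). Klf10 fell by 1.57 ± 0.069 on the log2 scale from 2 h to 8 h in rescued cells and by 1.94 ± 0.076 in knockout cells, and these steps differed by -0.36 ± 0.10 (adjusted p = 0.0201). Against rescued cells the knockout level was not shown to differ at 0 h (-0.17 ± 0.081, adjusted p = 0.166), was 1.56-fold lower at 2 h (-0.64 ± 0.067, adjusted p = 5.57e-09) and 2.01-fold lower at 8 h (-1.0 ± 0.076, adjusted p = 6.2e-12). The lower knockout values sat in the uneven libraries at both times, and the within-group correlation with Cdk8 was -0.655. Without those 3 libraries the knockout rise at 8 h, then clone A alone with no replicate of its own, was 0.47 (adjusted p = 4.94e-06) and the difference at 0 h, -0.17, passed (adjusted p = 0.046). With library size alone the knockout value at 8 h turned to -0.05 (adjusted p = 0.786), 0.332 above that scaling's median gene, and the 2 h and step differences did not pass (adjusted p = 0.0827 and 0.151), at -0.46 and -0.37 relative to it. The step difference also did not pass without knockout 2 h clone B or C, knockout 8 h clone B, rescued 2 h clone A or rescued 8 h clone B (adjusted p = 0.0569 to 0.077).

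Klf11 (chr12:24651274-24662789, plus strand), the close relative of Klf10 and also a Sin3-binding factor, fell where Klf10 rose. Klf11 read 39.3, 40.0 and 34.8 CPM in rescued clones A, B and C at 0 h, 11.2, 9.63 and 13.3 CPM at 2 h and 11.5, 9.11 and 8.82 CPM at 8 h. Knockout clones gave 47.9, 43.0 and 46.7 CPM, then 13.3, 12.9 and 13.2 CPM, then 13.9, 13 and 12.8 CPM. The drop had been reached by 2 h, with close estimates in both kinds of cell. It was 3.32-fold in rescued cells at 2 h (-1.73 ± 0.11, adjusted p = 5.66e-15) and 3.50-fold in knockout cells (-1.81 ± 0.10, adjusted p = 7.44e-16). At 8 h it stood at -1.91 ± 0.11 and -1.78 ± 0.11 (adjusted p = 3.2e-16 and 3.62e-15). The responses were not shown to differ, with knockout minus rescued at -0.08 ± 0.16 for 2 h and 0.13 ± 0.16 for 8 h (adjusted p = 0.811 and 0.609). Knockout libraries were somewhat higher at 0 h (0.27 ± 0.087, adjusted p = 0.031) and at 8 h (0.40 ± 0.13, adjusted p = 0.0163). The first of these did not pass without knockout or rescued clone A or C (adjusted p = 0.0563 to 0.178), nor by DESeq2 (adjusted p = 0.0834). The second did not pass without knockout clone A or rescued clone B or C (adjusted p = 0.0556 to 0.0917), and neither passed with library size alone (adjusted p = 0.318 and 0.456, or 0.26 and 0.43 relative to the median gene). The later rescued value against 2 h, -0.18 ± 0.13 (adjusted p = 0.22), passed without rescued 8 h clone A (-0.36, adjusted p = 0.0374).

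Klf16 (chr10:80567124-80577321, minus strand), another Sin3-binding family member, rose and fell back within the time course. Klf16 read 56.2, 54.6 and 56.1 CPM in rescued clones A, B and C at 0 h, 143, 165 and 156 CPM at 2 h and 74.8, 80.6 and 71.8 CPM at 8 h. Knockout clones gave 52.3, 53.8 and 59.8 CPM, then 137, 164 and 166 CPM, then 50.0, 61.1 and 68.1 CPM. The 0 h and 2 h values of both kinds of cell overlapped, and at 8 h the knockout libraries lay below the rescued ones, with knockout clone A the lowest. At 2 h Klf16 rose 2.78-fold in rescued cells (1.47 ± 0.081, adjusted p = 2.53e-16) and 2.83-fold in knockout cells (1.50 ± 0.080, adjusted p = 1.6e-16); the difference of these responses was 0.03 ± 0.12 and did not pass (adjusted p = 0.924). By 8 h rescued cells kept a rise of 0.44 ± 0.085 (adjusted p = 3.94e-05), beside 0.08 ± 0.091 in knockout cells (adjusted p = 0.459). These 8 h responses differed by -0.36 ± 0.12 (adjusted p = 0.0434) and the steps from 2 h by -0.39 ± 0.11 (adjusted p = 0.0266), while knockout against rescued cells at 8 h gave -0.37 ± 0.087 (adjusted p = 0.00121). These values lean on knockout 8 h clone A: without it they were -0.22 (adjusted p = 0.206), -0.25 (adjusted p = 0.134) and -0.23 (adjusted p = 0.0364), and the knockout rise at 8 h was 0.22 (adjusted p = 0.0366). Without the 3 uneven libraries, which leaves clone A, they were -0.58, -0.69 and -0.59. Leaving out 1 library ended the 8 h difference of responses in 9 of 12 fits, all but those without knockout 0 h clone A, knockout 8 h clone C or rescued 8 h clone C (adjusted p = 0.0537 to 0.206). It ended that of the steps in 7 of 12, namely knockout 2 h clones B and C, rescued 2 h clones A and C, knockout 8 h clone A and rescued 8 h clones A and B (adjusted p = 0.0512 to 0.134). The 8 h difference of responses also did not pass by DESeq2 (adjusted p = 0.0735), with its size factors in edgeR (adjusted p = 0.0551) or with only the groups compared (adjusted p = 0.0503). That of the steps did not pass with only the groups compared or library size alone (adjusted p = 0.0539 and 0.0716), the latter at -0.41 relative to the median gene.

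**Figure D3:**
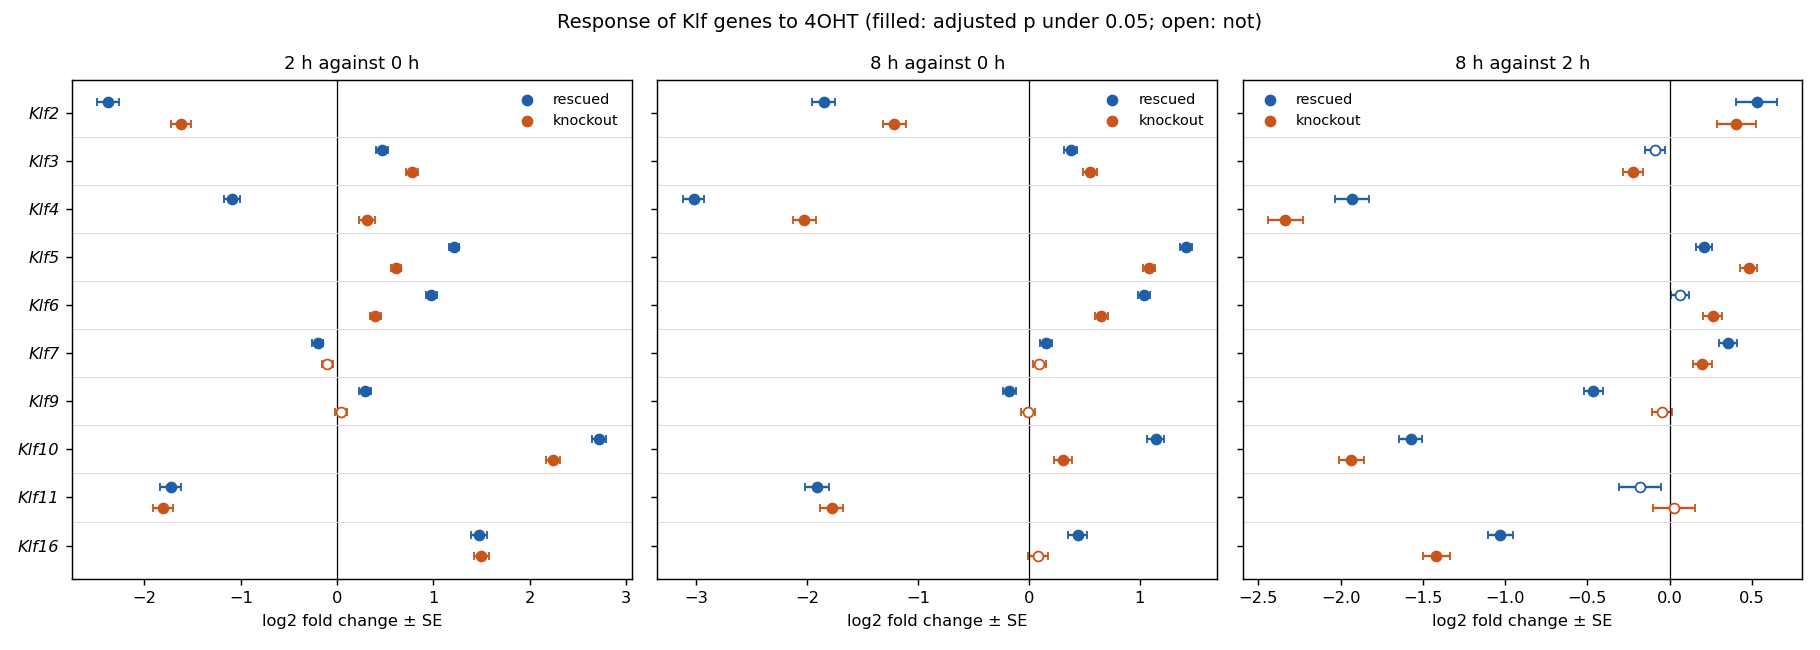
Log2 fold change ± SE of each Klf gene between times of 4OHT, in rescued (blue) and knockout (orange) cells, n = 3 libraries per group; filled points have an adjusted p under 0.05. At 2 h against 0 h Klf4 is the gene whose points lie on opposite sides of 0 with both filled, with the knockout point falling to 0.03 with library size alone.

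**Figure D4:**
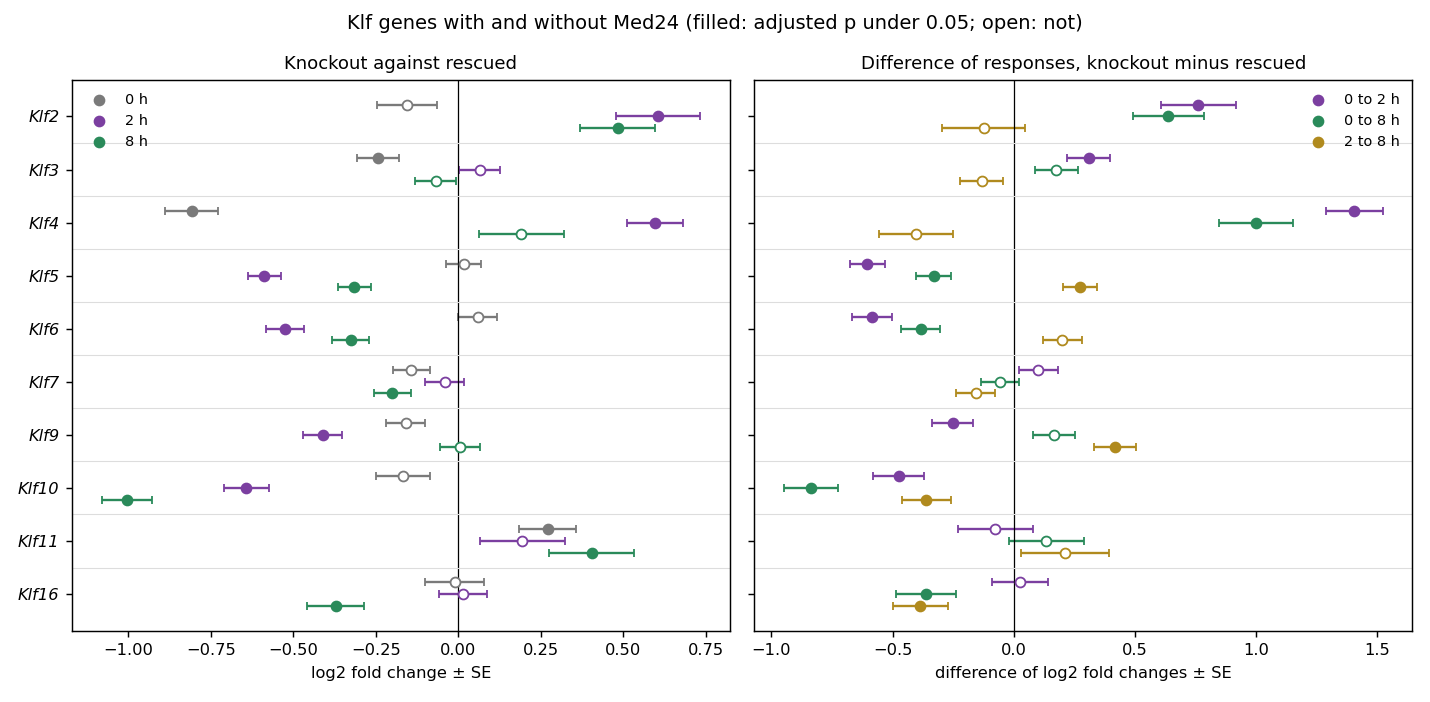
Left, log2 fold change ± SE of knockout against rescued cells at 0, 2 and 8 h; right, the difference of their responses over each interval; filled points have an adjusted p under 0.05. Klf2 and Klf4 lie to the right of 0 in the 2 h and 8 h differences, and Klf5, Klf6 and Klf10 to the left.

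The plot of responses thus parts the genes by time course. Klf5 and Klf6 rose and stayed up, Klf10 and Klf16 rose most at 2 h and fell by 8 h, Klf2 and Klf11 fell within 2 h, and Klf4 fell most by 8 h. Over the 18 libraries log2 CPM correlated at 0.978 between Klf5 and Klf6, 0.954 between Klf10 and Klf16 and 0.92 between Klf2 and Klf11, and at -0.938 between Klf5 and Klf11. The libraries come as 6 groups of 3 and share their depth and scaling, so these values describe the shared time course and carry no test. By the same measure, over 10472 genes with a mean of at least 5 CPM, the genes most like Klf2 were Esrrb (0.988) and Tmem47 (0.978), and those most like Klf4 were Hhip (0.991) and Jam2 (0.975). Klf5 was most like Esd (0.995) and Il6ra (0.994), and Klf6 most like Fosl1 (0.986) and Il6ra (0.985). Klf10 was nearest to Tlcd2 (0.984) and Fam78b (0.982), and Klf16 to Tmem201 (0.987) and Ddr1 (0.986). Klf11 was nearest to Fgf4 (0.982) and Foxi3 (0.98), and Klf3 to Egr1 (0.962) and Leprotl1 (0.96). Klf7 and Klf9 had looser neighbours, Slc12a8 (0.936) and Crmp1 (0.934) for Klf7, and Fem1b (0.89) and Xrcc2 (0.864) for Klf9.

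The rest of the family was read from a list of 16 other Klf and Sp genes, of which 12 were tested; Klf14, Klf17, Sp7 and Sp8 were too low. Sp factors share the zinc fingers and GC-box binding of the KLFs. At 2 h in rescued cells 4 of the 12 rose and 4 fell, about the share of all genes that did (32.4% and 33.8%), with a median of 0.0544 beside -0.0189 over all genes. At 8 h 4 rose and 7 fell, where 30.7% and 31.3% of all genes did (median -0.497, beside -0.0109 over all genes). Klf15, a metabolic regulator in liver and muscle, fell by 2.47 ± 0.10 on the log2 scale at 2 h and stood at -0.95 ± 0.082 at 8 h. Klf8, a CtBP-binding relative of Klf3, fell by 1.57 ± 0.095 at 2 h and by 2.10 ± 0.098 at 8 h. Klf12, the remaining CtBP-binding member, rose at 8 h (0.97 ± 0.071, adjusted p = 3.02e-13), and Sp4 fell (-0.91 ± 0.086, adjusted p = 1.05e-10). Knockout against rescued cells at 0 h, where 6.81% of all genes were higher and 9.64% lower, showed 1 of the 12 higher, Klf15 (0.25 ± 0.076, adjusted p = 0.0212), and 3 lower: Klf12 (-0.37 ± 0.075), Klf13 (-0.30 ± 0.064) and Sp4 (-0.31 ± 0.083). At 2 h 4 were higher and 1 lower (10.8% and 12.9% of all genes), and at 8 h 2 were higher and 3 lower (14.5% and 17.1%). The 2 h responses differed above 0 in 4 of the 12 (6.6% of all genes), among them Klf8 (0.54 ± 0.13, adjusted p = 0.00584), Klf12 (0.43 ± 0.10, adjusted p = 0.00423) and Sp3 (0.31 ± 0.077, adjusted p = 0.00642), and 8 did not pass (median 0.297, beside -0.00866 over all genes).

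KLF cofactors were followed over 12 genes for corepressors, acetyltransferases and ubiquitin ligases, 11 of them tested. In rescued cells 4 rose and 3 fell at 2 h, where 32.4% and 33.8% of all genes did (median 0.0603, beside -0.0189 over all genes). At 8 h 4 rose and 4 fell, where 30.7% and 31.3% did (median -0.0976, beside -0.0109). These counts lie near the shares of all genes. Sin3b, a scaffold of the Sin3 corepressor, rose at 2 h (0.56 ± 0.058, adjusted p = 7.8e-10) and at 8 h (0.81 ± 0.057, adjusted p = 1.22e-13). The acetyltransferase gene Ep300 rose (0.49 ± 0.049 at 2 h, adjusted p = 3.09e-10) and Kat2b, another acetyltransferase gene, fell (-0.44 ± 0.054, adjusted p = 1.87e-08). In knockout cells 6 rose and 1 fell at 2 h (31.5% and 35.2% of all genes), and 5 rose and 4 fell at 8 h (28.2% and 29.6%). Responses at 2 h differed above 0 in 3 of 11 (6.6% of all genes), with Kat2b at 0.51 ± 0.076 (adjusted p = 1.06e-05), and below 0 in 1 (6.6%), Sin3b at -0.32 ± 0.081 (adjusted p = 0.00718). At 8 h Sin3b stood at -0.59 ± 0.081 (adjusted p = 4.52e-06), Kat2b at 0.42 ± 0.075 (adjusted p = 0.000176) and the histone deacetylase gene Hdac2 at 0.53 ± 0.094 (adjusted p = 0.000181).

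The naive KLFs act in a network with other pluripotency factors. Tested were 12 genes listed by symbol as such partners, including Tcf3, whose symbol was not checked against other genes called by that name. In rescued cells 2 rose and 8 fell at 2 h, where 32.4% and 33.8% of all genes did (median -0.813, beside -0.0189 over all genes). At 8 h 4 rose and 8 fell, where 30.7% and 31.3% did (median -0.411, beside -0.0109). Esrrb, an orphan nuclear receptor of the naive network, fell by 1.77 ± 0.061 at 2 h. Nanog, a homeodomain factor of the same network, also fell (-2.08 ± 0.079, adjusted p = 2.18e-20). Tfcp2l1, a naive transcription factor gene, stood at -1.18 ± 0.058 (adjusted p = 1.76e-17). Klf2 and Klf4 fell beside them, and Klf5 rose. At 0 h, where Klf4 was lower in knockout cells, 5 partners were lower and 1 higher (9.64% and 6.81% of all genes), Zfp42 at -0.48 ± 0.062 (adjusted p = 1.48e-06) and Nr5a2 at -0.43 ± 0.061 (adjusted p = 8.96e-06) on one side and Tbx3 at 0.46 ± 0.058 (adjusted p = 1.23e-06) on the other. At 2 h, where Klf2 and Klf4 were higher in knockout cells, 9 partners were higher and 1 lower (median 0.28, beside 0.000678 over all genes), where 10.8% of all genes were higher and 12.9% lower. At 8 h 7 were higher and 1 lower, where 14.5% and 17.1% of all genes were. The 2 h responses differed above 0 in 6 of the 12 and below 0 in 1 (6.6% of all genes each way), with Nr5a2 at 0.77 ± 0.087 (adjusted p = 9.42e-08) and Zfp42 at 0.59 ± 0.087 (adjusted p = 8.64e-06). The 8 h responses differed above 0 in 8 (7.88% of all genes) and below 0 in 1 (8.88%), with a median of 0.458 beside -0.00721 over all genes.

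Markers of other cell types moved with some of these groups. The 8 primitive endoderm markers, mostly Col4a1, summed to 121 to 130 CPM in rescued and 229 to 255 CPM in knockout libraries at 0 h. They summed to 53.7 to 62.6 against 145 to 202 CPM at 2 h and to 74.1 to 78.5 against 136 to 189 CPM at 8 h. Sox7 and Foxa2 reached at most 1.39 CPM. The 8 stem cell markers summed to 2500 to 2520 CPM in rescued and 2320 to 2350 CPM in knockout libraries at 0 h, and to 1630 to 1650 against 1830 to 2020 CPM at 2 h. At 8 h they summed to 1900 to 1990 CPM in rescued and 2020 to 2390 CPM in knockout libraries. The 4 primed epiblast markers, mostly Dnmt3b, summed to 85.3 to 97.1 CPM in rescued and 113 to 134 CPM in knockout libraries at 0 h and to 57.4 to 60.7 against 81.1 to 95.1 CPM at 2 h. They overlapped at 8 h (219 to 220 and 215 to 259 CPM). The 8 trophectoderm markers, of which Tfap2c had the highest mean, were lower in sum in knockout libraries at 2 h, at 87.3 to 105 CPM against 142 to 147 CPM. They overlapped at 0 h (115 to 132 CPM in rescued, 127 to 135 in knockout) and at 8 h (196 to 219 and 154 to 217). The 4 neural markers, mostly Nes and with Tubb3 at 0 in every library, overlapped at 0 h (27.1 to 28.6 CPM in rescued, 25.7 to 29.1 in knockout). They were lower in knockout libraries at 2 h (32.2 to 38.9 against 55.2 to 64.6 CPM) and at 8 h (23 to 28.9 against 38.4 to 40.1 CPM). The 4 mesoderm markers, mostly Tbx6, overlapped at 0 h (4.32 to 8.64 CPM in rescued, 6.36 to 7.47 in knockout) and 2 h (10.1 to 12 and 9.47 to 12.3). At 8 h they were 13.3 to 16.4 CPM in rescued and 9.85 to 11.5 CPM in knockout libraries. Sums that did not overlap thus lay in both directions, and they carry no test. The part of these shifts in the Klf differences between knockout and rescued cells was not tested.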

How the data were processed

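The authors deposited whole-number read counts per gene symbol, not normalized, in 1 table of 18 libraries; all its sample columns were matched to the labels by name. Per the submitters' processing notes, STAR, featureCounts, DESeq and mm10 were used; the sources used here do not give their versions or annotation, or whether strand and introns entered the counting. Counts were analysed with edgeR 4.0.16 (limma 3.58.1, R 4.3.3): filterByExpr, TMM, 6 group means in 1 quasi-likelihood fit of all 18 libraries, 12 contrasts, and Benjamini-Hochberg adjustment at 0.05 over 14128 genes. The SE was taken from the log2 fold change and its F statistic. log2 CPM values used a prior count of 2. The fit was tested on simulated counts for the contrast of rescued cells at 2 h and 0 h only, with the same dispersion for every gene. No difference of responses and no library rich in abundant genes was simulated. Totals of 6691177 to 14541145 counts set the precision, and reads carry no molecular identifiers, so floors of 3 counts cover counting error only. No replicate pair agreed within sampling noise. No spike-in is named, so changes are relative within a library.

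The members and lists were chosen with earlier results of these data known. All members are named; from each list come up to 4 genes per comparison with the smallest p, and for each member the 2 genes most correlated with it, leaving out predicted gene models. The alternatives were DESeq2 1.42.0, its size factors, library size alone, no filter, only the groups compared, no libraries rich in abundant genes, each library left out, and the clone letter as a block. Positions come from GENCODE M21 on GRCm38, the assembly of mm10, and promoters from RefSeq.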

Additional observations from a re-analysis of the deposited data

Results flagged for a closer look

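The difference between the knockout and the rescued response passed the test, adjusted over all 14128 genes by edgeR's quasi-likelihood test, in 17 of the 30 combinations of a Klf gene and an interval; of all genes 13.2% passed for the 2 h response, 16.8% for the 8 h response and 9% for the step. For the 2 h response the difference was 1.40 for Klf4, 0.76 for Klf2 and 0.31 for Klf3 on the log2 scale, where knockout cells fell less or rose more. The values of Klf4 and Klf3 include lower knockout levels at 0 h, at -0.81 and -0.24 against rescued cells. At 2 h the levels stood at 0.60 and 0.07, and that of Klf3 did not pass. It was -0.60 for Klf5, -0.58 for Klf6, -0.47 for Klf10 and -0.25 for Klf9, where knockout cells rose less or, for Klf9, were not shown to rise. Klf4 is the gene whose responses had opposite signs and both passed, although its knockout rise was 0.03 and did not pass with library size alone.

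For the 8 h response the differences were 1.00 for Klf4, 0.64 for Klf2, -0.33 for Klf5, -0.38 for Klf6, -0.84 for Klf10 and -0.36 for Klf16. For the step from 2 h to 8 h they were 0.27 for Klf5, 0.42 for Klf9, -0.36 for Klf10 and -0.39 for Klf16. The differences of Klf3 and Klf9 at 2 h, of Klf16 at 8 h and of Klf10 and Klf16 over the step did not pass without certain single libraries, and those values stand beside each gene above. Klf7 and Klf11 had no difference of responses that passed. Dixon's test for a single outlying library was not run, since it has little power in groups of 3.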

How the results depend on the processing

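Of the 120 combinations of a Klf gene and a comparison, 117 kept their side of the threshold with DESeq2 and 118 with its size factors in edgeR. With no filter on low counts 119 did, with only the groups compared 117 and with library size alone 94. The fit without the 3 libraries rich in abundant genes leaves knockout at 8 h as 1 library, and its changes stand beside the genes above. Each of the 18 libraries was also left out in turn. This gave 900 values of a gene and a comparison, many of them from the same fit. Of these 849 kept their side, 44 no longer passed and 7 passed only then. A change of sign between values that pass under neither setting was counted as kept. With library size alone the number of the 10 genes that passed was 5 (8 with TMM) for 8 h against 2 h in knockout cells. Of the 14128 genes 2619 were then higher and 3359 lower (4153 and 3916 with TMM). For knockout against rescued cells at 0 h 1 of the 10 passed (3 with TMM), beside 213 of all genes higher and 207 lower (962 and 1362 with TMM). For the difference of the 2 h responses 4 passed (7 with TMM), beside 57 of all genes above 0 and 532 below (933 and 933 with TMM). For that of the steps from 2 h to 8 h 0 passed (4 with TMM), beside 79 and 292 of all genes (619 and 652 with TMM). In each case fewer of all genes passed too. The sign turned in 1 called value, Klf10 at 8 h against 0 h in knockout cells, at -0.049 against a main value of 0.31. The median of all genes was then -0.381, and Klf10 lay 0.332 above it. The 0 for the steps stands beside 3 genes at an unadjusted p under 0.05 in the same fit. By DESeq2 4 passed for the steps, where 461 of all genes lay above 0 and 566 below. With library size alone 31.9% of the genes that passed at 2 h in rescued cells were higher, against 48.9% with TMM. At 8 h in knockout against rescued cells 8.17% were, against 45.8%. Without the 3 libraries rich in abundant genes the 0 h differences of Klf9 and Klf10 between knockout and rescued cells were -0.1625 and -0.1706. With those libraries they were -0.1598 and -0.1676. The cause of their crossing of the threshold, given with each gene above, was not tested, and none of the 3 is a 0 h library. Leaving out 1 library gave 2 to 4 genes for the difference of the steps. Of all genes tested in those fits 468 to 833 lay above 0 and 499 to 726 below.

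Each group has the same clone letters, which no label links to a day or batch. Deviations from the group means correlated at a mean of 0.0164 over 45 same-letter pairs (-0.101 to 0.0826) and at -0.00817 between letters. Correlations of each library with those of the other groups were also averaged by letter. For 15 of 18 libraries the highest of these means was for its own letter. With the letter as a replicate block all 120 values kept their side of the threshold. As without the block, 10 of the 10 genes passed at 2 h in rescued cells. Of the 14128 genes 4577 were then higher and 4761 lower, beside 4574 and 4780 without the block.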
